A study of Homo sapiens with 2 samples.

Results

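Homologous recombination and Fanconi genes were described on 2 Affymetrix expression arrays of KYSE170-luc, a line of human esophageal squamous carcinoma. Cells on one array had received an empty vector for 12 h and those on the other a SOX17 plasmid for the same time, so transfection itself was common to both. The members were 39 named genes of the pathways, taken from all 75 probe sets that the platform annotation pairs with exactly 1 gene whose symbol is on that list. Of the 39 genes 35 had such a probe set, out of 19775 genes on the arrays, and BRCA2, RBBP8, FANCA and FANCD2 had none and were not analysed here. Each group had 1 array. A difference is therefore one between 2 arrays, without a replicate check, and that number sets how precise any value can be. The sources used here do not say what share of the cells took up plasmid. In such bulk RNA, fewer cells of a kind and less RNA per cell cannot be told apart.

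Homologous recombination repairs a broken chromosome by copying an intact sister. The kinases ATM and ATR signal the damage, nucleases and helicases cut back the ends, BRCA1 and BRCA2 with their partners load the recombinase, and its paralogs and RAD54 proteins help the strand exchange. The Fanconi pathway clears crosslinks between DNA strands: a core complex with the E2 enzyme UBE2T attaches ubiquitin to FANCD2 and FANCI, which then call in nucleases such as those held by SLX4. Esophageal squamous carcinoma is known to be frequent in people with Fanconi anemia.

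With 2% of values trimmed at each end the means of the empty vector and SOX17 arrays were 499.3 and 499.0. An intensity of 95, the 60th percentile of all values, served as a floor, and a gene counted as measured when the brightest of its probe sets, by mean log2 intensity, reached it on both arrays. SOX17 itself stayed below that floor on both arrays: one probe set read 4.5 with the empty vector and 83.8 with SOX17, and the other 19.1 and 6.5. The values thus do not check the labels. Spiked-in poly-A controls read higher with SOX17 on 24 of 24 probe sets (median log2 ratio 0.57), and the ratio of 3′ to 5′ signal with the empty vector and SOX17 was 11.6 and 10.4 for ACTB and 1.16 and 1.18 for GAPDH. All 5 squamous epithelium markers with a named probe set were measured, KRT14 and KRT5 among them. Of 6 fibroblast markers 1 was measured (COL1A1), of 5 endothelial markers 0, and of 5 leukocyte markers 1 (CD79A, 112 and 96.9).

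Sequences of the starts of these genes were taken from RefSeq (GRCh38.p14), where 36 of the 39 members matched. Because SOX17 was the factor introduced, the string ACAAT, the core of sites that SOX proteins bind, was searched on both strands of windows from 250 bases before to 50 after each start. It lay in windows of 5 of 36 members (13.9%), against 22.5% of 8341 measured genes and 31.8% of all 27305 genes with a window. The longer form AACAAT, which contains ACAAT, lay in 2 members (5.56%), RAD51AP1 and RAD51B, against 7.85% of measured genes. The surroundings of these strings are printed because they are where the members carry the letters of that core, with only the SOX strings in capitals and the strand of the gene read 5′ to 3′ (ATTGT and ATTGTT are the strings read on the other strand).
RAD51AP1, chr12:4538640-4538674, plus strand: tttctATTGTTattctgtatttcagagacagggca
RAD51B, chr14:67823314-67823368, plus strand: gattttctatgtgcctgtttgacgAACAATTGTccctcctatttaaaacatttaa
RAD51B, chr14:67823384-67823438, plus strand: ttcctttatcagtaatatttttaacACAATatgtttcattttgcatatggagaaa
MUS81, chr11:65860273-65860327, plus strand: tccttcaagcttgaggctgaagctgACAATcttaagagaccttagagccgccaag
UBE2T, chr1:202341974-202342028, minus strand: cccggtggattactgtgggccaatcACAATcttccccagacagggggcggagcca
BRCA1, chr17:43125457-43125511, minus strand: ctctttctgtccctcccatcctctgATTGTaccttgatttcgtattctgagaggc
By their brightest probe sets the 5 genes did not differ in 1 direction between the arrays. MUS81 and UBE2T had log2 ratios above 0 (0.50 and 0.36), and RAD51AP1, RAD51B and BRCA1 below 0 (-0.20, -0.41 and -0.06). A second measured probe set of RAD51B (0.11) and of BRCA1 (0.53) lay above 0. A match is a run of letters and not a binding site, and no match says only that these letters are not in that window.

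Most members differed little between the arrays. Of the 33 measured members 13 had a log2 ratio above 0 and 20 below 0 (SOX17 to empty vector). Their median log2 ratio was -0.02, beside 0.03 over all 10034 measured genes, of which 54.6% lay above 0. A 2-fold difference was reached by 0 members (0.747% of all measured genes), and 2 were at least 1.5-fold higher, XRCC2 and FANCF (3.78% of all measured genes). One, FANCB, was at least 1.5-fold lower (3.19% of all measured genes). The SD of the log2 ratios was 0.32 over the members and 0.32 over all measured genes, so the members were spread as widely as genes in general.

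To gauge the error of 1 ratio, the log2 ratios of the 2 brightest measured probe sets of a gene were subtracted, and the SD of these differences was divided by √2. It was 0.27 over 4574 genes and 0.32 over the 11 members with several measured probe sets. It covers error within these arrays and not the spread between cultures. By level it was 0.35 in the lowest tertile of measured genes, 0.26 in the middle and 0.17 in the highest, and 12, 15 and 6 members fell into those tertiles. Beyond the others, 4 members differed by 2 of these SDs or more, FANCE, XRCC2 and UBE2T upward and FANCL downward. That is 9.09% of the members upward and 3.03% downward, beside 4.53% and 5.34% of all measured genes.

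**Figure D1:**
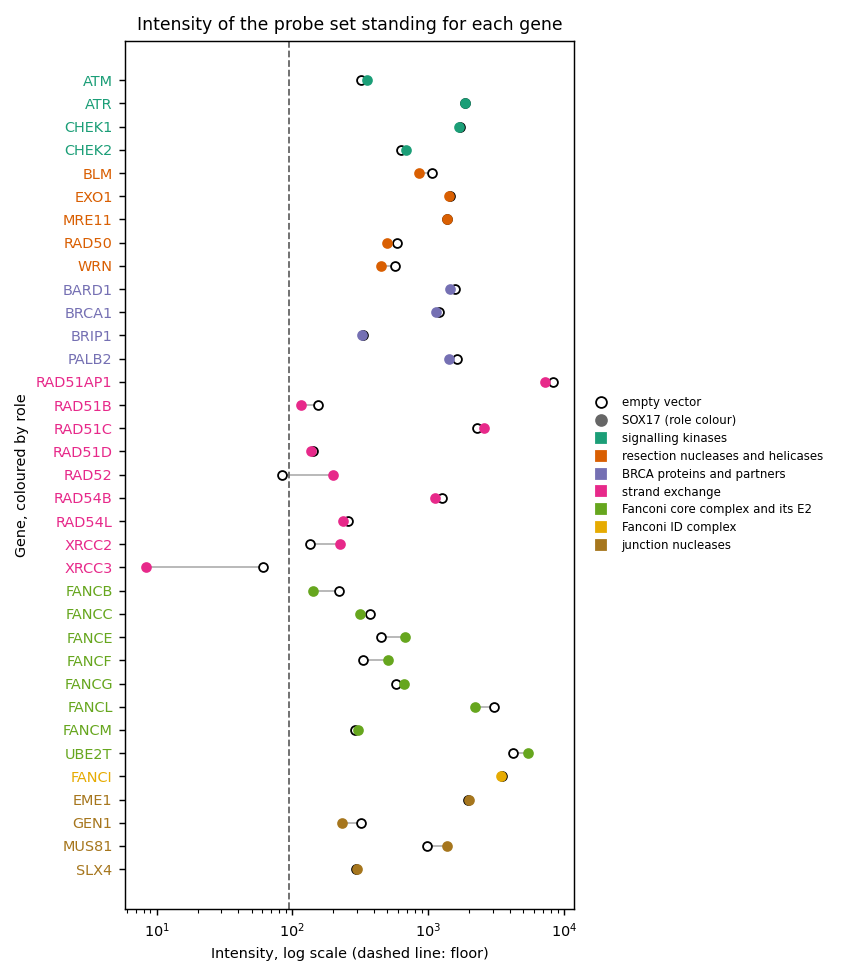
Intensity of the probe set that stands for each of 35 genes on the empty vector array (open points) and the SOX17 array (filled points), on a log scale, with genes coloured by role and the floor of 95 as a dashed line. Most pairs of points nearly coincide. RAD52 crosses the floor and XRCC3 lies below it on both arrays. Positions of different genes also depend on their probe sets.

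The Fanconi core complex, grouped with its E2 enzyme UBE2T, had the widest spread among the role groups, with an SD of 0.47 over 8 measured genes. Of these 5 lay above 0 and 3 below, and the median was 0.14. FANCF, an adaptor that holds parts of the core complex together, read 329.2 with the empty vector and 503 with SOX17, a log2 ratio of 0.61 (1.53-fold). Its second probe set read 328.6 and 445 (0.44), so both probe sets were higher on the SOX17 array. FANCE, which bridges the core complex to FANCD2, read 451.7 and 677 on its only probe set. Its log2 ratio of 0.584 lay just under the 1.5-fold limit of 0.585.

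FANCB, a core subunit that works next to the ligase FANCL, went the other way. Its measured probe set read 220.8 with the empty vector and 141 with SOX17, a log2 ratio of -0.65. The other three FANCB probe sets read 128.7 and 55.9, 93 and 35, and 77.7 and 57.6. All 4 were thus lower on the SOX17 array, although 3 of them lay below the floor there and carry no fold. FANCL, the ubiquitin ligase of the complex, read 3066.4 and 2214.2 on its only probe set (-0.47). It lies in the highest tertile of level, where the error of 1 ratio is smallest, and 6.28% of measured genes had a ratio as low or lower. UBE2T, the E2 enzyme that works with FANCL, was higher at 4200.5 and 5402 (0.36, as high or higher in 12.3% of measured genes). FANCC lay at -0.25, FANCG at 0.19 and FANCM, the helicase that anchors the complex on DNA, at 0.09. The other probe sets of FANCC, below the floor on both arrays, read 23.9 and 61.7, and 35.2 and 36.7, both higher with SOX17. The second measured probe set of FANCM lay at 0.29. Its other probe sets, below the floor on 1 or both arrays, read 99.2 and 53.2, and 59.5 and 20.1, both lower with SOX17.

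The starts of FANCF and FANCB are shown because these genes were the core subunits farthest apart, with every searched string in capitals.
FANCF, chr11:22625824-22626073, minus strand: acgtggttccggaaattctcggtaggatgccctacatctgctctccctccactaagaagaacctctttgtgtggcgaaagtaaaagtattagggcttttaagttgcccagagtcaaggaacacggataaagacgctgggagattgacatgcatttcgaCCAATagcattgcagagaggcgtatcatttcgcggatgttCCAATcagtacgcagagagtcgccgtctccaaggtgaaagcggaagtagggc
FANCB, chrX:14873070-14873319, minus strand: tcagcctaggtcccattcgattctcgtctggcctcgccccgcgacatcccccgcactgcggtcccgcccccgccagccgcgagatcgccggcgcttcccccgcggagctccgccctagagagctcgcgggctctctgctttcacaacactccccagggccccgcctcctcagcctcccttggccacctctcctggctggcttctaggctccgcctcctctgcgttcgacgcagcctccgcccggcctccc
The 250 bases before the start of FANCF hold the string CCAAT 2 times, 92 and 52 bases before the start, and 49.2% G or C. Those of FANCB hold none of the searched strings and 71.6% G or C. CCAAT, the box bound by NF-Y, lay on either strand in windows of 17 of 36 members (47.2%) and 43.9% of measured genes. One of the E2F strings TTTGGCGC, TTTCCCGC and TTTCGCGC lay in 5 members (13.9%), EXO1, FANCC, FANCD2, GEN1 and XRCC2, and in 5.98% of measured genes. The CHR element TTTGAA lay in 4 members (11.1%) and 14.2% of measured genes. Measured members with CCAAT had a median log2 ratio of -0.01 and those without it of -0.03. With an E2F string 1 of 4 measured members lay above 0 (median -0.14), and without one 12 of 26 (median -0.01). With TTTGAA 2 of 4 lay above 0 (median 0.06), and without it 11 of 26 (median -0.02).

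Of the Fanconi ID complex FANCI was measured. Its probe sets read 3485.1 and 3443.2 (-0.02), 1054 and 1341.8 (0.35), and 702.3 and 844.8 (0.27). The brightest probe set was nearly equal on both arrays and the other two were higher on the SOX17 array, so its ratio depends on the probe set that stands for it.

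By the probe set that stands for each gene, the measured resection and BRCA genes all lay below 0, by small amounts. Of all measured genes 54.6% lay above 0. None of these resection and BRCA genes is in the shortest tertile of gene span, given below. The resection nucleases and helicases did so in 5 of 5 genes (median -0.25). BLM, the helicase lost in Bloom syndrome, read 1073.7 and 852.6 (-0.33), and WRN, the helicase lost in Werner syndrome, read 569.3 and 453 (-0.33). RAD50, which tethers broken ends together with MRE11, lay at -0.25. The nucleases MRE11 and EXO1 lay at -0.01 and -0.03. Each of the 5 rests on 1 measured probe set, and each ratio was smaller than 2 SDs of the error at its level. The other two probe sets of RAD50 and those of MRE11, below the floor on 1 or both arrays, all lay above 0.

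Among the BRCA proteins and their partners 4 of 4 lay below 0, with a median of -0.09 and a range of -0.21 to -0.02. PALB2, which links BRCA1 to BRCA2, lay at -0.21 and the helicase BRIP1 at -0.02. BARD1, the partner of BRCA1 in their ubiquitin ligase, had 3 measured probe sets at -0.12, -0.24 and -0.19, all below 0. BRCA1 read 1197.2 with the empty vector and 1145.4 with SOX17 (-0.06). Its second probe set, an _x_at design that can bind related sequences, read 134.9 and 194.2 (0.53), and the mean of both was 0.23.

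**Figure D2:**
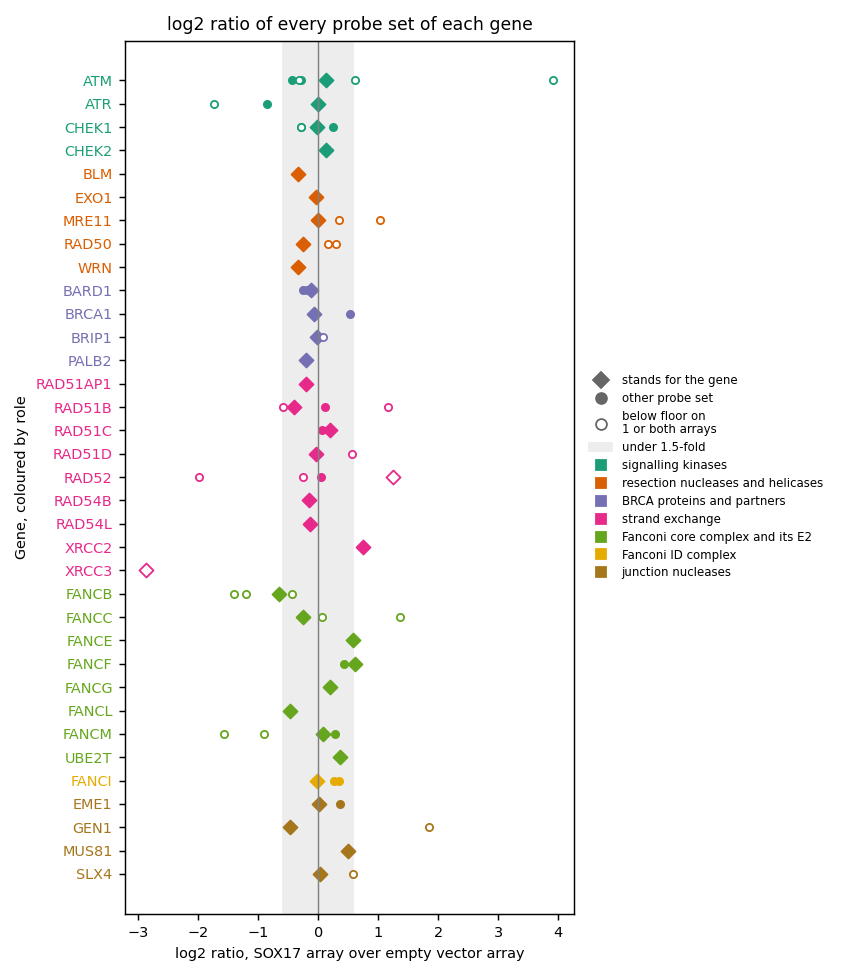
log2 ratio (SOX17 to empty vector) for all 75 probe sets of the 35 genes, with diamonds for the probe set that stands for a gene, filled points for measured probe sets and a grey band for differences under 1.5-fold. Filled points lie mostly within the band, while open points spread from -2.87 (XRCC3) to 3.92 (a probe set of ATM that read 0.8 and 12.1).

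Genes of strand exchange had a median of -0.14 over 7 measured members, 2 above 0 and 5 below. XRCC2, a paralog of the recombinase, had the largest ratio of all measured members. It read 133.9 with the empty vector and 225.2 with SOX17, a log2 ratio of 0.75 (1.68-fold), which 1.55% of measured genes reached. This value rests on 1 probe set, an _x_at design near the floor. RAD51C, which joins XRCC3 and the other paralogs, had probe sets at 2276.8 and 2597.8 (0.19) and at 2033.1 and 2135 (0.07), both above 0.

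RAD51B, a further paralog, read 153.6 and 115.6 (-0.41) on one measured probe set and 106.5 and 115.3 (0.11) on the other. RAD51AP1, which stimulates joint formation, read 8373.4 and 7304.7 (-0.20). The translocases RAD54B and RAD54L lay at -0.16 and -0.14, and RAD51D at -0.03. XRCC3 read 60.8 and 8.3, both below the floor, and has no fold.

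RAD52, an annealing protein, was not counted as measured. Its brightest probe set read 84.5 with the empty vector, below the floor, and 200.8 with SOX17. That probe set was thus at least 2.11-fold higher with SOX17, but the SOX17 value itself made it the brightest. Of all 19775 genes 32 (0.162%) were under the floor with the empty vector and reached 2 times the floor or more with SOX17. Their probe sets were chosen in the same way. A second RAD52 probe set had nearly the same mean log2 intensity and read 127.1 and 132 (0.05). It was the only RAD52 probe set measured on both arrays. The others, below the floor, read 88.3 and 74.2 and 61.2 and 15.4. The 4 probe sets of RAD52 thus did not point one way.

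Among the damage kinases ATM, ATR and CHEK1 showed the same kind of disagreement between probe sets, while CHEK2 had only 1 probe set. By their brightest probe sets ATM (0.13), ATR (0.005), CHEK1 (-0.01) and CHEK2 (0.13) were all close to 0. ATR, the kinase of stalled forks, read 1876.5 and 1882.6 on that probe set but 795.1 and 441.5 (-0.85) on its second one. That is 1.80-fold lower on the SOX17 array. ATM, the kinase of double-strand breaks, read 322.8 and 354.1 on its brightest probe set, while the other two measured ones read 234.1 and 172.8 (-0.44) and 135.3 and 111.3 (-0.28). CHEK1, the effector kinase of ATR, read 1715.9 and 1698.7 (-0.01), 1037.4 and 854.6 (-0.28), and 838.4 and 989.8 (0.24) on its measured probe sets, so they pointed both ways. With the mean over probe sets in place of the brightest one the median of the 4 kinases moved from 0.07 to -0.11, so no direction is given for this group.

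Over all members, 11 had several measured probe sets, and in 5 of these (45.5%) all had 1 sign, beside 48.6% of 4574 genes. The 5 were BARD1, below 0, and EME1, FANCF, FANCM and RAD51C, above 0.

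The junction nucleases lay 3 above 0 and 1 below, with a median of 0.03. MUS81, which cuts stalled forks and joints, read 974 and 1375.2 (0.50) on 1 probe set. EME1, its partner, read 1980.3 and 2011.2 (0.02) on the brighter probe set and 220.6 and 284.4 (0.37) on the other. GEN1, a resolvase of Holliday junctions, read 321.1 and 233.3 (-0.46) on its measured probe set. Its other probe set, far below the floor on both arrays, read 3.6 and 13. SLX4, the nuclease scaffold, lay at 0.04.

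Many repair genes are transcribed mostly in S phase. Of 13 measured members listed as such, 2 lay above 0 (UBE2T and EME1) and 11 below, with a median of -0.06. Of the 20 other measured members 11 lay above 0, with a median of 0.02. Of all measured genes 54.6% lay above 0. With the mean over probe sets BRCA1 (0.23) and FANCI (0.20) lay above 0 too, and the median of the listed members was -0.03. UBE2T and EME1 are also the only listed members in the shortest tertile of gene span, given below. The parts of timing and span in these counts were not tested. The replication list was not sorted by that timing, and 27 of its 40 genes were above 0, with a median of 0.10. LIG1 (-0.64) and RFC1 (-0.60) of that list were at least 1.5-fold lower on the SOX17 array, beside 3.19% of all measured genes.

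The members' log2 ratios went with the span of their genes, a feature that did not enter their choice and was looked at after the ratios were known. All 6 members in the shortest tertile of measured genes, under 16.8 kb in RefSeq's GRCh38.p14, lay above 0. These were FANCF (3.29 kb), FANCG, MUS81, EME1, UBE2T and FANCE (14.8 kb), with a median log2 ratio of 0.43. Of the 9 members in the middle tertile 3 lay above 0 and 6 below, with a median of -0.03. Of the 18 members in the longest tertile, of 51.8 kb or more, 4 lay above 0 and 14 below, with a median of -0.09. The members' middle and longest tertiles thus lay closer to each other than to the shortest. Over all measured genes 64.3% of the shortest tertile lay above 0 (median 0.10), 55.0% of the middle (median 0.04) and 44.5% of the longest (median -0.03). Spearman's rho between span and ratio was -0.55 over the 33 members and -0.19 over 10024 measured genes. The points share both arrays, and genes are not independent replicates.

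Of the measured probe sets, which include those that stand for the genes, 8 of 8 of the short members lay above 0 and 11 of 31 (35.5%) of the long ones. Over all measured genes 61.0% of probe sets of short genes and 43.0% of those of long genes lay above 0. Within the Fanconi core complex and its E2 the 4 short genes lay at 0.19 to 0.61 and the 4 long ones at -0.65 to 0.09. Of the other recombination and crosslink repair genes 6 of 11 short ones and 8 of 12 long ones lay above 0, and of the replication genes 9 of 12 short ones and 6 of 13 long ones. The poly-A controls given above also differed between the arrays, while the 3′ to 5′ ratio was lower with SOX17 for ACTB and nearly equal for GAPDH. Their part in the relation was not tested.

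**Figure D3:**
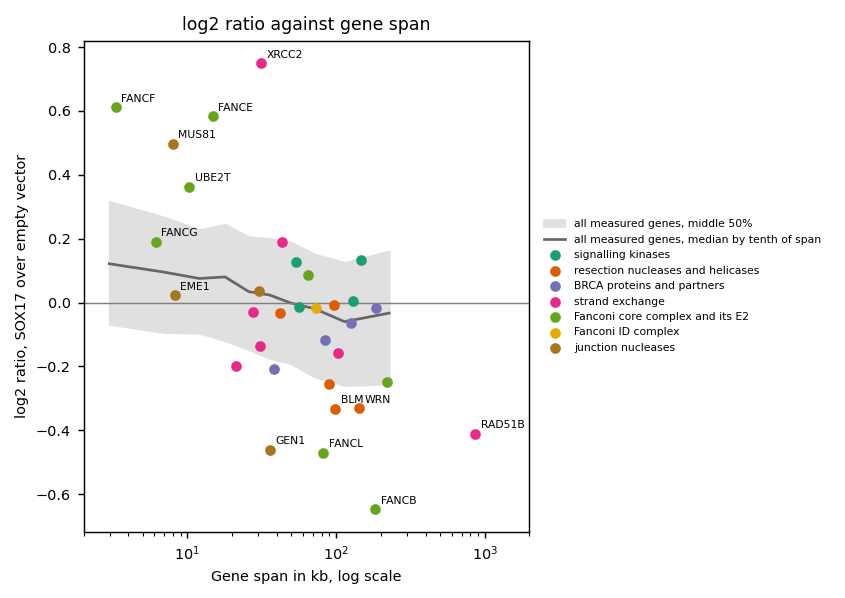
log2 ratio (SOX17 to empty vector) against gene span in kb, on a log scale, for the 33 measured members (points, coloured by role), with the median and the middle 50% of all measured genes by span in grey. The 6 members under 16.8 kb lie above 0, and FANCB, FANCL and RAD51B lie low among the long ones. XRCC2, at 31.4 kb, lies highest.

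Members often share their start region with a gene on the other strand. A start within 1000 bases upstream on the opposite strand was found for 17 of 36 members (47.2%), beside 31.2% of 8341 measured genes. In 10 such pairs both genes were measured, and 5 of the 10 had ratios of the same sign, beside 53.2% of 654 measured pairs. FANCB (-0.65) faces MOSPD2 (0.41), ATM (0.13) faces the histone gene activator NPAT (-0.24), and GEN1 (-0.46) faces SMC6 (-0.04), a subunit of the SMC5/6 complex.

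Beside the members, 45 other recombination and crosslink repair genes were measured. Of these 22 lay above 0 and 23 below, with a median of -0.01. Among them 1 was at least 1.5-fold higher and 1 at least 1.5-fold lower, beside 3.78% and 3.19% of all measured genes. The first was FAAP100, a partner of FANCB and FANCL, which read 114.8 and 214.2 (0.90). Its empty vector value lies near the floor of 95. The second was CENPX, a partner of FANCM, which read 1867.9 and 1204.3 (-0.63). FAAP24, also a partner of FANCM, lay at 0.44. RPA3, the smallest subunit of the single-strand binding protein RPA, read 14472.7 and 20974 (0.54), and NBN, the third subunit of the MRE11 complex, 4925.4 and 3757.6 (-0.39). Genes of end joining, the other route of break repair, lay 5 above 0 and 2 below, with a median of 0.02, and 0 of 7 passed 1.5-fold.

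**Figure D4:**
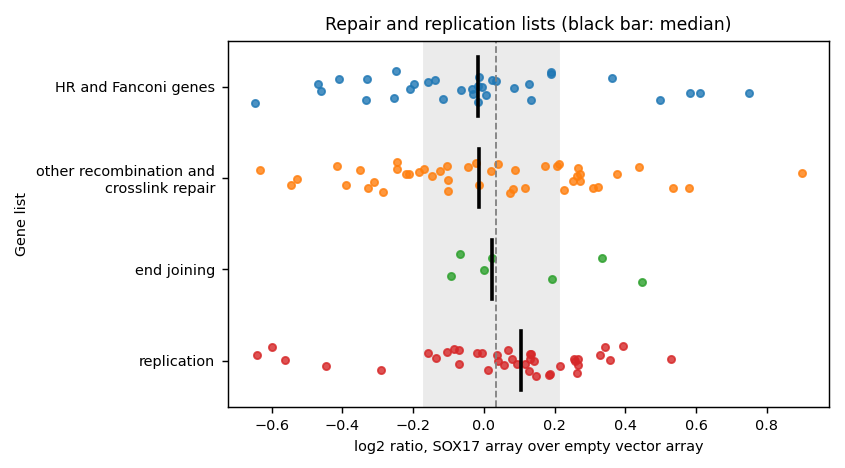
log2 ratio of each measured gene in 4 lists, with a black bar at the list's median, and the median (dashed line) and middle 50% (grey) of all measured genes. The medians are -0.02 for the members, -0.01 for the other recombination and crosslink repair genes, 0.02 for end joining and 0.10 for replication, and the points of the lists overlap widely.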

How the data were processed

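Per the submitters' processing notes GCOS was used, and the deposited values are a linear intensity for each probe set on each array. The algorithm and its settings are not given in the sources used here. Values were used as deposited, with no further scaling. Probe sets were named by GEO's platform annotation, only where it pairs them with 1 gene, and 2 probe sets paired with a member and another gene were left out. No test was possible with 1 array per group, and no p-value was computed. All 39 members are named; both intensities are given for members at least 1.5-fold apart, for those with several measured probe sets of 1 sign and a mean log2 ratio of at least 0.3 in size, for those that reached the floor on just 1 of the arrays, for the 5 brightest, and for those with measured probe sets of each sign at least 0.5 apart. Other members given with both intensities are FANCC, FANCE, FANCM, MUS81, GEN1, BLM, WRN, EME1 and XRCC3. These and the genes named outside the members were chosen after their values were seen. The members and lists were chosen with earlier results of these data known. Gene spans, starts and sequences come from RefSeq's GRCh38.p14 and the arrays' values carry no genome build. Alternatives were centring, quantile normalization, loess (span 0.4), other floors, the mean over probe sets and leaving out _x_at and _s_at designs. Computation ran in Python 3.11.15 (pandas 2.3.3, numpy 2.4.6; statsmodels 0.14.6 for loess; scipy 1.17.1 for correlations) and was tested on simulated data.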

Additional observations from a re-analysis of the deposited data

How the results depend on the processing

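The counts of members past a fold rest on a few genes near the limit or the floor. The count at least 1.5-fold higher was 1 in place of 2 with the median of all genes set to 0, with a floor at the 75th percentile, with the mean over probe sets and without _x_at and _s_at designs. Centring (0.58) and the mean over probe sets (0.52) put FANCF just under that limit. The count was 3 with quantile normalization and with loess, where FANCE passed the limit (0.592 and 0.589), and 3 with a floor at the 50th percentile or none, where RAD52 entered. The count at least 1.5-fold lower, 1 as reported, was 0 at the 75th percentile, and 2 when no floor was set or without _x_at and _s_at designs. The count past 2-fold was 1 at the 50th percentile, and 2 when no floor was set, which admits genes below the floor. With no floor the SD of the log2 ratios was 0.62 over the members and 1.18 over all genes. As reported it was 0.32 over both. The shares of all genes past a fold were not counted under these other settings, so these counts have no background beside them. The members' median was -0.12 without _x_at and _s_at designs, with 7 of 23 above 0, and stayed between -0.05 and -0.01 otherwise. Without those designs the median of all 7396 measured genes was 0.01, and 51.3% lay above 0. With the mean over probe sets the median was -0.11 for the kinases and 0.083 for the other recombination and crosslink repair genes, which was also 0.083 without _x_at and _s_at designs. Of the 6 short members 5 lay above 0 after centring (EME1 at -0.01 did not), and Spearman's rho between span and ratio ranged from -0.61 to -0.44 over the members. Over all genes it ranged from -0.23 (floor at the 75th percentile) to -0.06 (no floor). The brightest probe set measured on both arrays, tried after the data were seen, counted RAD52 as measured (0.05) and left 2 members at least 1.5-fold higher and 1 lower. The number of arrays limits all values.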
